A study of Homo sapiens with 4 samples.

Results

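The small non-coding RNA genes of human cells were described in the transcriptome of cells labelled NB4. The genes carry symbols of the small nuclear RNAs (RNU and RNVU1), of the small nucleolar RNAs (SNORD and SNORA), of the small Cajal body RNAs (SCARNA), of 7SL RNA (RN7SL) and of the RNA parts of RNase MRP and RNase P (RMRP and RPPH1). Of 64252 genes in the deposited count table, 597 matched these symbols, and the 119 with at least 10 counts summed over the 4 libraries were kept. Genes whose symbols end in P, the mark of a pseudogene, were left out. The members were thus chosen by their summed counts, so those sums are given only as a description. At the limit, 3 members, RNU6-8, RNVU1-30 and SNORA2A, had 10 counts, and 7 genes had 9 counts, among them RNVU1-32, SCARNA5, SNORA12, SNORD105 and SNORD11. RN7SK, the gene of 7SK RNA, could not be matched by its identifier and was not analysed here.

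Cells of the NB4 line were treated for 24 h with 8 μM dBET1 (2 libraries) or with DMSO, the solvent, for 24 h (2 libraries). The count table names the control columns NC, and they were matched to the DMSO samples by time and replicate number, as the labels give no other control. NB4 is a line derived from acute promyelocytic leukemia that carries the PML-RARa fusion. dBET1 joins a ligand of the BET bromodomain proteins to a ligand of the ubiquitin ligase adaptor cereblon, so that the BET proteins are marked for degradation. All libraries came from 1 cell line, and the labels do not say whether replicates 1 and 2 were separate cultures, so p-values measure only the spread between these samples, which may be technical. Several lineage markers went against a promyelocytic line. Of 10 promyelocytic and myeloid genes, ELANE and CTSG, which encode neutrophil granule proteases, were at 0 counts in all libraries, MPO had 0 and 0 counts with DMSO and 22 and 10 with dBET1, while CD33, a myeloid surface protein gene, had 323 to 335 counts and SPI1, a myeloid and lymphoid transcription factor gene, had 629 to 904. The list summed to 36.9 to 42.3 CPM (counts scaled to a common library size). All 12 erythroid genes had at least 100 counts in every library, and they summed to 6517 and 7859 CPM with DMSO and to 3920 and 3843 CPM with dBET1. The cells are therefore named below only by their label, and the part of these lineage genes in the results on small RNAs was not tested.

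Small nuclear RNAs form the core of the spliceosome. U1 pairs with the 5′ splice site and U2 with the branch site, while U4, U5 and U6 join as a preassembled particle, and a minor spliceosome uses U11, U12, U4atac and U6atac. Small nucleolar RNAs guide the modification of ribosomal RNA: the box C/D kind (SNORD) directs 2′-O-methylation and the box H/ACA kind (SNORA) directs pseudouridylation, and the small Cajal body RNAs do the same for small nuclear RNAs. U3, encoded by the SNORD3 genes, instead acts in the cleavage of the ribosomal RNA precursor. U1, U2, U4, U5 and U3 genes have their own promoters and are read by RNA polymerase II, U6, 7SL, RMRP and RPPH1 are read by RNA polymerase III, and most other snoRNAs are cut from the introns of host genes.

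The deposited counts summed to between 28019956 and 34685645 per library, and the 119 members held 0.0142% to 0.0249% of them. The 7SL genes made up most of this share. Members other than 7SL held 1408 and 1252 counts with DMSO and 1674 and 1588 with dBET1, and the median member had 26 counts in all 4 libraries together. Most of these RNAs carry no poly(A) tail, and 82 of the 119 genes are shorter than the 150-base reads (range 66 to 791 bases, median 134), so the counts measure what of each RNA or of its precursors entered long-RNA libraries. The amount of mature small RNA per cell was not measured. In bulk samples, fewer cells of a type and less RNA per cell cannot be told apart.

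The classes went in different directions. Summed counts of U1, U2, U4, U5 and U3 genes were higher after dBET1. Those of 7SL, of the other box C/D and of the box H/ACA genes were lower, and those of U6 overlapped. U3 was split from the other box C/D genes after the values were seen. All 40 box C/D members together were higher, with 675 and 572 counts under DMSO and 900 and 921 under dBET1. Over all genes, 40 members passed edgeR's filter on low counts, and 10 were called higher and 7 lower after dBET1. A call needed an adjusted p under 0.05 together with a log2 fold change of more than 1 in size (quasi-likelihood test of edgeR, Benjamini-Hochberg adjustment over 17971 genes). This is 42.5% of the members tested, beside 25.4% of all genes tested. The members called higher were 25% of those tested, beside 16.9% of all genes, and the members called lower were 17.5%, beside 8.54%. The filter bears on these counts. Of the 40 members, 10 passed only through the dBET1 libraries and had to be higher there in order to be tested, and 8 of the 10 higher calls came from them. Another 6 passed only through the DMSO libraries and had to be higher there. They gave 2 of the 7 lower calls, SNORD15B and SNORA3B. Among the 16 members with enough counts in all 4 libraries, 2 were called higher and 4 lower. The median log2 fold change was -0.25 over the 40 members, 0.05 over all genes tested and 0.97 over the 3070 tested genes with 10 to 100 counts.

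Without any test, the libraries of the groups overlapped in CPM for 50 of the 119 members and were separate for the rest. In 32 members (26.9%) both dBET1 libraries were higher, beside 41.9% of all genes with at least 10 counts, and in 37 (31.1%) both were lower, beside 32.0% of all genes. Genes of so few counts went mostly upward in these libraries. Of genes with 10 to 100 counts, 49.0% were higher and 11.6% lower in both dBET1 libraries, whereas of the 108 members with at most 100 counts 29 (26.9%) were higher and 31 (28.7%) lower. The counts differed by the way the genes are transcribed, a difference that was not tested. Of 25 members with their own polymerase II promoter, 20 had both dBET1 libraries above both DMSO libraries and 0 had both below. Outside U3 this group has 20 members, and 10 of them had under 3 counts in each DMSO library. These 10 could reach the limit of 10 counts only with higher dBET1 counts, so the number partly follows from the choice of members. Of 6 polymerase III members, 0 had both above and 3 had both below. Of the 88 other snoRNA and scaRNA genes, 12 had both above and 34 both below.

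**Figure D1:**
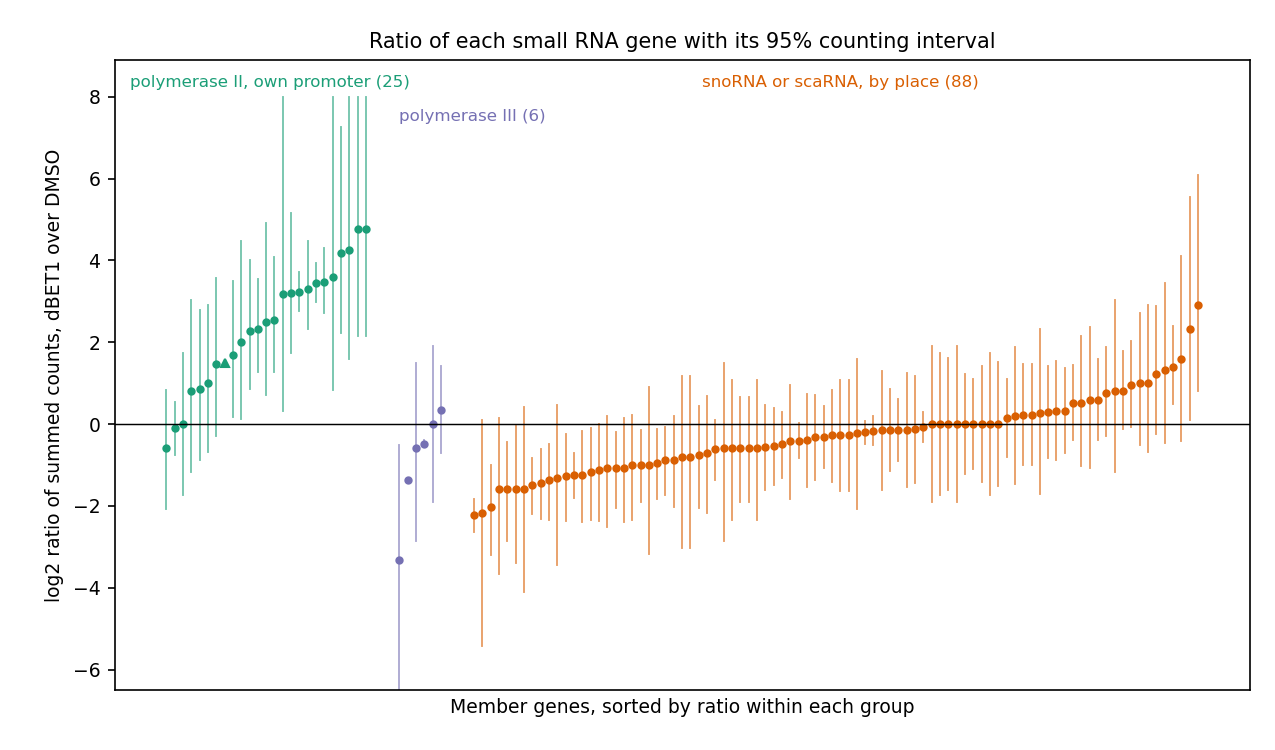
Log2 ratio of the summed counts, dBET1 over DMSO and scaled to the normalized library sizes, for each of the 119 members, sorted within 3 groups by mode of transcription. Lines are 95% counting intervals, cut at the edges of the plot, and the triangle marks RNU4-1, which had no DMSO count and is drawn at its lower bound. In the polymerase II group 23 of 25 members had a ratio above 1, against 33 of the 88 snoRNA and scaRNA genes. Outside U3, 10 of the polymerase II members had under 3 counts in each DMSO library and were kept only through the dBET1 libraries.

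The members of each of these groups were also summed. Genes with their own polymerase II promoter summed to 110 and 122 counts with DMSO and to 788 and 748 with dBET1, a ratio of 6.64 after scaling (95% interval 5.78 to 7.66). U3 held most of these dBET1 counts. Without it, a sum chosen after the values were seen, the counts were 58 and 60 against 230 and 186. This is a ratio of 3.54 (2.88 to 4.38). Both ratios partly follow from the choice of members, since 10 members outside U3 had under 3 counts in each DMSO library. Intervals of ratios, here and below, are exact binomial intervals (Clopper-Pearson) of the pooled counts and cover at most counting error. They take each count as an independent read. The step that made the counts is not given, and if reads were counted more than 1 time the intervals are too narrow. The polymerase III genes had a ratio of 0.466 (0.451 to 0.482), set almost wholly by 7SL. The remaining snoRNA and scaRNA genes summed to 1285 and 1106 counts with DMSO and to 867 and 829 with dBET1, a ratio of 0.712 (0.668 to 0.758). Both dBET1 libraries thus lay on 1 side of both DMSO libraries in each of the 3 sums.

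**Figure D2:**
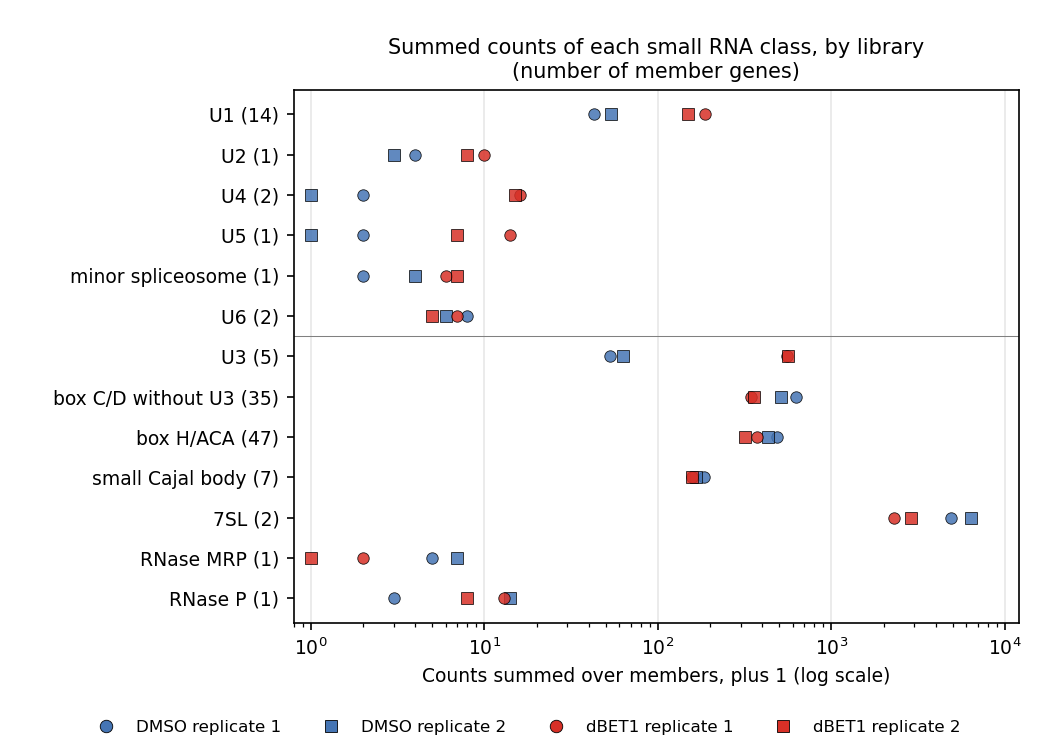
Counts summed over the members of each class, plus 1, on a log scale, with 1 point per library and the number of member genes in brackets. The U1, U2, U4, U5, minor spliceosome and U3 sums of the dBET1 libraries lie to the right of both DMSO libraries. Those of 7SL, RNase MRP, box H/ACA and the box C/D genes other than U3 lie to the left. U3 was split from box C/D after the values were seen.

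U1 was represented by 14 of 30 annotated genes, all on chromosome 1. The reference gene RNU1-1 (ENSG00000206652, chr1:16514122-16514285, minus strand, hg38) and the U1 copies that bear on the result are given here as GENCODE release 44 transcripts. In RNU1-1 the capitals mark ACTTACCTG, the bases near the 5′ end that pair with the 5′ splice site, and AATTTGTGG, which holds the binding site of the Sm proteins. In the other genes the capitals mark bases that differ from RNU1-1.
RNU1-1: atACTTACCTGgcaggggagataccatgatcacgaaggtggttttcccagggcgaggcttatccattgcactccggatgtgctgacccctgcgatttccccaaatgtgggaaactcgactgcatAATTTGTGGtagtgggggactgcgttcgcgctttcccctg
RNVU1-7: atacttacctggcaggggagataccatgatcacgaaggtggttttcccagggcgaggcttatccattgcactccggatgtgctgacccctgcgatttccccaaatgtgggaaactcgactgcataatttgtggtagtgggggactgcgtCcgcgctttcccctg
RNVU1-27: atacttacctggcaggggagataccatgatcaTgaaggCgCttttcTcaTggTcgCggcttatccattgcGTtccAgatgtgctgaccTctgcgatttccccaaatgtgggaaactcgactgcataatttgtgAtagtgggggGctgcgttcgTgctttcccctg
RNVU1-24: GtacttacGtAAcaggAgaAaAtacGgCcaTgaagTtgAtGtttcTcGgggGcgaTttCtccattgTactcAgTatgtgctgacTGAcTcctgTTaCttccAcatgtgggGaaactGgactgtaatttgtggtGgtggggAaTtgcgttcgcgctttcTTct
RNVU1-4: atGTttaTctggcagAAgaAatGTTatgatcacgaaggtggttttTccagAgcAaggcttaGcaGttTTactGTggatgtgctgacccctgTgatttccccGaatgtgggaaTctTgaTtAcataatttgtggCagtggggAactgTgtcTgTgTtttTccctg
RNVU1-7 differs from the reference at a single base, T150C (positions counted from 1 at the 5′ end of RNU1-1). RNVU1-27 differs at 14 bases and RNVU1-24 at 46, deletions and insertions included, and both were called higher. RNVU1-4, which was not, differs at 33 bases.

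The U1 members summed to 42 and 53 counts with DMSO and to 185 and 148 with dBET1, a ratio of 3.52 (95% interval 2.79 to 4.47). Of 7 U1 genes tested, 6 were called higher and none lower, beside 16.9% and 8.54% of all genes tested. All 6 passed the filter through the dBET1 libraries alone. RNVU1-27 (ENSG00000274210, chr1:148522601-148522765, plus strand) had 1 and 1 counts under DMSO and 19 and 17 under dBET1, a ratio of 18.1 (4.65 to 155) and a log2 fold change of 4.01 ± 0.71 (SE, n = 2 per group, edgeR adjusted p = 0.00217). RNVU1-24 (ENSG00000201699, chr1:149162783-149162944, minus strand) had 2 and 2 counts against 19 and 18, a log2 fold change of 3.14 ± 0.62 (SE, edgeR adjusted p = 0.0037). In both genes the groups lay far apart. RNVU1-25 had 1 and 0 counts with DMSO and 14 and 13 with dBET1 (edgeR adjusted p = 0.00476), and RNVU1-7 had 0 and 1 counts against 17 and 10 (edgeR adjusted p = 0.00685). With so few DMSO counts, their ratio of 27.1 has an interval that starts at 4.46. The fitted log2 fold change of 4.45 became 6.73 for RNVU1-25 without DMSO replicate 1 and 6.80 for RNVU1-7 without DMSO replicate 2, since the other DMSO library had no count. Without dBET1 replicate 1 neither gene passed the filter, so both calls were lost there. RNVU1-6 had 3 and 6 counts against 27 and 18 (edgeR adjusted p = 0.013). RNVU1-15, named to complete the calls after its values were seen, had 3 and 3 counts against 24 and 11 (edgeR adjusted p = 0.016). None of these 6 genes passed the filter with counts divided by 2 or with at least 10 counts in every library, so all 6 calls were lost there. The calls of RNVU1-6 and RNVU1-15 were the least firm. With DESeq2 the adjusted p was 0.0704 for RNVU1-6 and 0.0845 for RNVU1-15. The edgeR adjusted p of RNVU1-6 was 0.0741 without DMSO replicate 1 and 0.133 without dBET1 replicate 1, and that of RNVU1-15 was 0.0743 without DMSO replicate 1, 0.0593 without DMSO replicate 2 and 0.234 without dBET1 replicate 1.

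The U1 gene with the most counts showed no separate groups. RNVU1-4 (ENSG00000277610, chr1:120942600-120942763, plus strand) had 17 and 27 counts under DMSO and 23 and 18 under dBET1, with overlapping groups, a ratio of 0.935 (0.596 to 1.46) and a log2 fold change of -0.12 ± 0.46 (SE, edgeR adjusted p = 0.85). It lies in an intron of the lncRNA gene LINC00623, whose log2 fold change was -0.88. Without RNVU1-4, the U1 sum was 25 and 26 counts with DMSO and 162 and 130 with dBET1, a ratio of 5.74 (4.25 to 7.89). Of the 7 U1 members below the filter, RNVU1-31, RNVU1-26, RNVU1-19, RNVU1-30 and RNU1-2 had both dBET1 libraries above both DMSO libraries. RNU1-1 (3 and 1 against 5 and 2 counts) and RNVU1-21 (3 and 4 against 1 and 6) overlapped.

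Near-identical copies can trade reads, so the copies were also summed. The RNU1-1 sequence is carried without a difference by 8 annotated genes, which together had 8 and 6 counts with DMSO and 31 and 25 with dBET1, a ratio of 4.01 (2.2 to 7.81). RNVU1-24, RNVU1-25 and RNVU1-26, which differ from each other at 2 to 5 bases, had 5 and 3 counts against 39 and 42 together, a ratio of 10.2 (4.92 to 24.3). The splice-site letters ACTTACCTG stood in the first 12 bases of 7 of the 14 members and of 16 of the 30 annotated genes. The members with these letters had a ratio of 5.54 (3.71 to 8.53), and those without them had 2.63 (1.97 to 3.55), or 6.02 (3.81 to 9.93) with RNVU1-4 left out after its values were seen. Whether the kinds differ was not tested. The letters AATTTGTGG, searched on the transcribed strand, were found in 10 of the 14 members and in 23 of the 30 annotated genes.

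**Figure D3:**
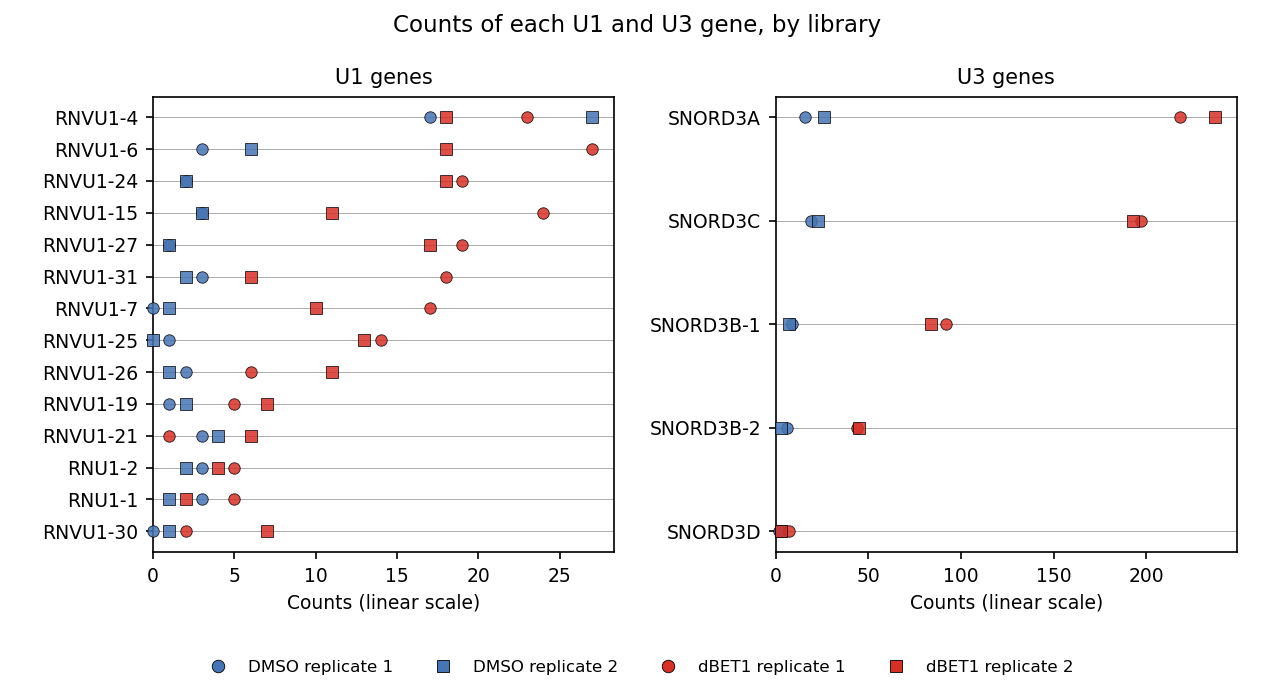
Counts of each U1 gene and each U3 gene in the 4 libraries, on linear axes that start at 0, with 1 point per library. The dBET1 points lie to the right of both DMSO points in 11 of 14 U1 genes and in 4 of 5 U3 genes. RNVU1-4, RNVU1-21, RNU1-1 and SNORD3D overlap. Scaled to library size, both dBET1 libraries were higher in 49.0% of all genes with 10 to 100 counts. The share was 41.9% of all genes with at least 10 counts.

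The other spliceosomal genes read by polymerase II were below edgeR's filter and got no test. RNU2-1 (ENSG00000274585, chr17:43233787-43233977, minus strand), the U2 gene, had 3 and 2 counts with DMSO and 9 and 7 with dBET1, a ratio of 3.21 (1.12 to 11.2). It lies in an intron of CCDC200, which had 0 and 0 counts against 23 and 20. RNU5A-1 (ENSG00000199568, chr15:65296051-65296166, plus strand), a U5 gene, had 1 and 0 counts against 13 and 6, a ratio of 19.1 (3.03 to 792). The U4 gene RNU4-1 (ENSG00000200795, chr12:120293097-120293237, minus strand) had 0 and 0 counts under DMSO and 9 and 8 under dBET1, which is at least 2.83-fold higher when 3 counts are allowed for in each DMSO library. RNU4-2, a U4 gene that differs from RNU4-1 at 4 bases, had 1 and 0 counts against 6 and 6, a ratio of 12 (1.78 to 515). In all 4 genes both dBET1 libraries were above both DMSO libraries, beside 49.0% of all genes with 10 to 100 counts. The number of genes with both above partly follows from the choice of members. RNU5A-1, RNU4-1 and RNU4-2 had under 3 counts in each DMSO library and reached the limit of 10 counts only through the dBET1 libraries, as did 7 of the 14 U1 genes with so few DMSO counts. RNU2-1, RNU5A-1, RNU4-1 and RNU4-2 were also summed, a sum chosen after their values were seen. It had 5 and 2 counts with DMSO and 37 and 27 with dBET1, a ratio of 9.17 (4.20 to 23.7).

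Of the minor spliceosome, RNU4ATAC was the only member. It had 1 and 3 counts with DMSO and 5 and 6 with dBET1, a ratio of 2.76 whose interval of 0.818 to 11.9 includes 1. It lies in an intron of the lncRNA gene CLASP1-AS1, which was called higher with a log2 fold change of 2.45. RNU11 and RNU12 each had 0 and 0 counts with DMSO and 1 and 1 with dBET1, and RNU6ATAC had no count in any library. RNU7-1, the gene of the histone-processing U7 RNA, had 3 counts in all. U6, the spliceosomal RNA read by polymerase III, had too few counts to compare with the other classes. RNU6-2 had 3 counts in every library, and the 7 annotated U6 genes with its sequence had 3 and 4 counts with DMSO and 4 and 3 with dBET1, a ratio of 1.00 (0.300 to 3.35). RNU6-8 had 4 and 2 counts against 3 and 1. At this depth a change of U6 was not detectable.

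All 40 box C/D members summed to 675 and 572 counts with DMSO and to 900 and 921 with dBET1, a ratio of 1.47 (1.36 to 1.58). Among them, the U3 genes stood apart, and they were split off after the values were seen. They lie close together on chromosome 17, and the mature U3 RNA of SNORD3A, 217 bases as placed by RefSeq on hg38, is shown first. In the gene SNORD3D, the U3 copy whose counts stayed low, the capitals mark the 3 bases that differ from SNORD3A.
SNORD3A: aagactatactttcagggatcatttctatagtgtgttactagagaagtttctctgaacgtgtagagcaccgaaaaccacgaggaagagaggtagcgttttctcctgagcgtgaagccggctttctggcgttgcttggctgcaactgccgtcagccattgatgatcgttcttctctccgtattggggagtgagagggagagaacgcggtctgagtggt
SNORD3D: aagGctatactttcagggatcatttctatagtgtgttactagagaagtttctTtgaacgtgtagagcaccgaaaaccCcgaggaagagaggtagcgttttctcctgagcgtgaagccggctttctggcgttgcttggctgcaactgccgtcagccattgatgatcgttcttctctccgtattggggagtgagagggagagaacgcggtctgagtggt
SNORD3B-1, SNORD3B-2 and SNORD3C each differ from SNORD3A at 1 base of this stretch.

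SNORD3A (ENSG00000263934, chr17:19188016-19188714, plus strand) had 16 and 26 counts under DMSO and 218 and 237 under dBET1, a ratio of 10.9 (7.91 to 15.3) and a log2 fold change of 3.42 ± 0.33 (SE, n = 2 per group, edgeR adjusted p = 0.000103). SNORD3C (ENSG00000264940, chr17:19189665-19190245, minus strand) had 19 and 23 counts against 197 and 193, a log2 fold change of 3.20 ± 0.29 (SE, edgeR adjusted p = 7.62e-05). These were the 2 higher members with enough counts in all 4 libraries, and in each the groups did not come near each other. SNORD3B-1 (ENSG00000265185) had 9 and 7 counts against 92 and 84 (log2 fold change 3.45 ± 0.36, SE, edgeR adjusted p = 0.000157). SNORD3B-2 (ENSG00000262074) had 6 and 3 counts against 44 and 45 (log2 fold change 3.28 ± 0.48, SE, edgeR adjusted p = 0.000816). SNORD3B-1 and SNORD3B-2 passed the filter only through the dBET1 libraries, where they were higher. Together with SNORD3D, the U3 genes summed to 52 and 62 counts with DMSO and to 558 and 562 with dBET1, a ratio of 9.86 (8.12 to 12.1).

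The gene models behind these counts are longer than U3 RNA. The annotation extends SNORD3A by 482 bases past the 3′ end of the RefSeq U3, SNORD3B-1 by 541, SNORD3B-2 by 574 and SNORD3C by 364, and the table does not tell where in the model a read lay. SNORD3D, whose model ends 1 base past the RefSeq end, had 2 and 3 counts with DMSO and 7 and 3 with dBET1, a ratio of 2.01 (0.625 to 7.48) with groups that overlap. It lies in an exon of the lncRNA gene ENSG00000262202, which had 78 and 84 counts with DMSO and 650 and 712 with dBET1 and was called higher at 3.07 on the log2 scale. Per kilobase of gene model, SNORD3A had 22.9 and 37.2 counts with DMSO and SNORD3D had 9.17 and 13.8. With dBET1 these levels were 312 and 339 counts per kilobase for SNORD3A and 32.1 and 13.8 for SNORD3D.

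The 35 other box C/D members had a lower sum after dBET1, while most of them showed no separate groups. They summed to 623 and 510 counts with DMSO and to 342 and 359 with dBET1, a ratio of 0.621 (0.564 to 0.683). Of 12 tested, 2 were called lower (beside 8.54% of all genes) and 0 higher (beside 16.9%), and 10 were not called. The adjusted p without the fold limit gave the same numbers. Both dBET1 libraries were below both DMSO libraries in 13 of the 35 (37.1%, beside 32.0% of all genes) and above in 2 (5.71%, beside 41.9%). SNORD17, the member with the larger of these falls, is shown as its GENCODE release 44 transcript with SNORD100 and SNORD101, which share a host gene with a lower H/ACA member. The capitals mark box C (TGATGA) and box D (CTGA).
SNORD17: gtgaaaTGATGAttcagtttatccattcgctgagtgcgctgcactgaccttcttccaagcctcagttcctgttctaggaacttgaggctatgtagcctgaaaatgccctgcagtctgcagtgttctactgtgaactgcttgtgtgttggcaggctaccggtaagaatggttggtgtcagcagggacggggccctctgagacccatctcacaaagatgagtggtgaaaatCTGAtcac
SNORD100: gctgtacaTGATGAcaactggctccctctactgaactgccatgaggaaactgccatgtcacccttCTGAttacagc
SNORD101: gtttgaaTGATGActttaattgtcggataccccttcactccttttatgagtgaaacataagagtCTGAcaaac
TGATGA in the first 20 bases together with CTGA in the last 15, searched on the transcribed strand, was found in 25 of the 40 box C/D members (62.5%) and in 62.5% of the 309 annotated genes.

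SNORD17 (ENSG00000212232, chr20:17962710-17962946, minus strand) had 208 and 102 counts under DMSO and 41 and 25 under dBET1, a ratio of 0.214 (0.161 to 0.279) and a log2 fold change of -2.2 ± 0.38 (SE, n = 2 per group, edgeR adjusted p = 0.00202). The DMSO libraries differed by more than counting error, and both stood above both dBET1 libraries. SNX5, in whose intron it lies and which encodes a sorting nexin, had a log2 fold change of -0.44. SNORD15B (ENSG00000207445, chr11:75404421-75404566, plus strand) had 24 and 17 counts against 5 and 5, a log2 fold change of -2.00 ± 0.52 (SE, edgeR adjusted p = 0.0128). It passed the filter only through the DMSO libraries, where it was higher. SNORD15B lies in an intron of the ribosomal protein gene RPS3, whose log2 fold change was 0.07. With DESeq2 the adjusted p of SNORD15B was 0.108, so its call was lost there. The SNORD15B call was lost without DMSO replicate 1 (edgeR adjusted p = 0.0922), dBET1 replicate 1 (0.0913) or dBET1 replicate 2 (0.0945), while that of SNORD17 held without any 1 library. SNORD104, with the highest level per length outside 7SL (31.5 CPM per kilobase), had 71 and 70 counts with DMSO and 71 and 55 with dBET1 (log2 fold change -0.16 ± 0.29, SE, edgeR adjusted p = 0.658). Its groups overlapped, and its host, the lncRNA gene SNHG25, had 100 and 86 counts against 121 and 91. Without SNORD17, left out after its values were seen, the 34 other members had a ratio of 0.774 (0.697 to 0.86). SNORD118, the gene of U8, had 1 count in every library, and SNORD13 had none.

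Box H/ACA genes gave 47 members, of which 11 were tested, 3 called lower (beside 8.54% of all genes) and 0 higher (beside 16.9%). Their counts summed to 488 and 432 with DMSO and to 371 and 319 with dBET1, a ratio of 0.752 (0.681 to 0.831), and both dBET1 libraries were below both DMSO libraries in 19 of the 47 (40.4%, beside 32.0% of all genes) and above in 7 (14.9%, beside 41.9%). The 3 genes called lower are shown with the ACA letters near their 3′ end in capitals.
SNORA33: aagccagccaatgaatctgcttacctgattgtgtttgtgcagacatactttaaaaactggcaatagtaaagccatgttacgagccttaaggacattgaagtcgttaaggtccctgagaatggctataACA
SNORA5C: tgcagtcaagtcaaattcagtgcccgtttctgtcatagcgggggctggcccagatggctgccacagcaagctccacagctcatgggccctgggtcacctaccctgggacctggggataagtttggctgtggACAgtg
SNORA3B: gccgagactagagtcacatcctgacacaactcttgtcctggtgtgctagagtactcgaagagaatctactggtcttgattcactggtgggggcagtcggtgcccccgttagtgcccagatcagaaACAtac
ACA stood in the last 6 bases of 44 of the 47 members (93.6%) and of 81.3% of the 209 annotated H/ACA genes.

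SNORA33 (ENSG00000200534, chr6:132817219-132817348, plus strand) had 51 and 46 counts under DMSO and 21 and 20 under dBET1, a log2 fold change of -1.23 ± 0.34 (SE, n = 2 per group, edgeR adjusted p = 0.0169). SNORA5C (ENSG00000201772, chr7:45104906-45105042, minus strand) had 24 and 22 counts against 7 and 10, a log2 fold change of -1.42 ± 0.47 (SE, edgeR adjusted p = 0.0334). SNORA3B (ENSG00000212607, chr11:8685439-8685569, plus strand) had 21 and 18 counts against 7 and 8, a log2 fold change of -1.36 ± 0.48 (SE, edgeR adjusted p = 0.0433). It passed the filter only through the DMSO libraries, where it was higher. With DESeq2 the adjusted p was 0.0943 for SNORA33, 0.204 for SNORA5C and 0.262 for SNORA3B. The groups were separate in all 3 genes, but the calls were not firm. That of SNORA33 was lost without dBET1 replicate 1 (edgeR adjusted p = 0.0747) or dBET1 replicate 2 (0.0906), and those of SNORA5C and SNORA3B were lost without any 1 of the 4 libraries (edgeR adjusted p of 0.105 to 0.219 and of 0.150 to 0.234). SNORA73B, the H/ACA member with the most counts, guides no modification and acts in ribosomal RNA processing. It had 68 and 69 counts with DMSO and 85 and 45 with dBET1 (log2 fold change -0.07 ± 0.36, SE, edgeR adjusted p = 0.876), so that its dBET1 libraries stood on either side of the DMSO libraries.

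Small Cajal body RNAs gave 7 members with a summed count of 184 and 166 with DMSO and 157 and 156 with dBET1, a ratio of 0.897 whose interval of 0.768 to 1.05 includes 1. Of 3 tested, 1 was called lower, beside 8.54% of all genes tested. SCARNA12 (ENSG00000238795, chr12:6967337-6967606, minus strand) had 28 and 45 counts under DMSO and 13 and 13 under dBET1, a log2 fold change of -1.50 ± 0.47 (SE, n = 2 per group, edgeR adjusted p = 0.0261). It lies in an exon of PHB2, a gene of the prohibitin family, whose log2 fold change was -0.97. This call was lost without DMSO replicate 2 (edgeR adjusted p = 0.173), dBET1 replicate 1 (0.0912) or dBET1 replicate 2 (0.0915). With DESeq2 the adjusted p of SCARNA12 was 0.0927, and with no count filter its edgeR adjusted p was 0.0628. With total counts as the only scale, the class was slightly higher after dBET1 (log2 ratio 0.05). SCARNA9, which held 65.0% of the counts of the class, had 129 and 102 counts against 102 and 98. Scaled to library size, these were 3.95 and 3.63 CPM against 3.40 and 3.21, separate but not called (log2 fold change -0.20 ± 0.23, SE, edgeR adjusted p = 0.494). SCARNA2, the member of the class with its own promoter, had 10 and 2 counts against 3 and 5, with overlapping groups.

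The snoRNA and scaRNA genes were also set beside their host genes. Of the 88 genes, 57 lie in an intron and 29 wholly or partly in an exon of a gene on the same strand, and 81 have a host that was tested, in 66 host genes. The median log2 ratio of the 81 members was -0.26 and that of their hosts, each host counted once per member, was -0.44. The log2 ratio of the members and the log2 fold change of the hosts had a Pearson correlation of 0.08 and a Spearman correlation of 0.10 across the 81 genes, which share libraries and host genes and are not independent, and 47 of 81 had the same sign. Neither value describes more than a weak relation in sparse counts.

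Host groups showed the same lack of match. In 12 members within ribosomal protein genes, the median log2 ratio was -1.02 while that of the hosts was 0.06, and the members summed to 208 and 185 counts with DMSO and 98 and 118 with dBET1. Of the 8 tested, 3 were called lower (SNORD15B, SNORA33 and SNORA3B), beside 8.54% of all genes tested. SNORD15B and SNORA3B could be tested only through the DMSO libraries, where they were higher. Both dBET1 libraries were below both DMSO libraries in 8 of the 12, beside 32.0% of all genes with at least 10 counts. Within RPS12, a gene of the small ribosomal subunit with a log2 fold change of 0.06 ± 0.08 (SE), all 3 members were lower in both dBET1 libraries. Beside SNORA33, SNORD100 (chr6:132816802-132816877) had 17 and 20 counts against 10 and 9, and SNORD101 (chr6:132815307-132815379) had 19 and 15 against 8 and 8. Neither of them passed the test (edgeR adjusted p = 0.126 and 0.0975), and both were chosen after their values were seen.

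In the opposite arrangement, 18 members lie in hosts that were called lower. Their median log2 ratio was -0.27, while that of the hosts was -1.42. SNORA5C and its host TBRG4, a mitochondrial RNA-binding protein gene (log2 fold change -1.04), were both called lower. SNORA26, named after its values were seen, had 15 and 19 counts against 6 and 18, while the lncRNA DANCR, in whose exon it lies, fell by 2.17 on the log2 scale. Genes in introns had a ratio of summed counts of 0.672 (0.624 to 0.725), and those wholly or partly in exons had 0.844 (0.749 to 0.951), a difference that was not tested.

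**Figure D4:**
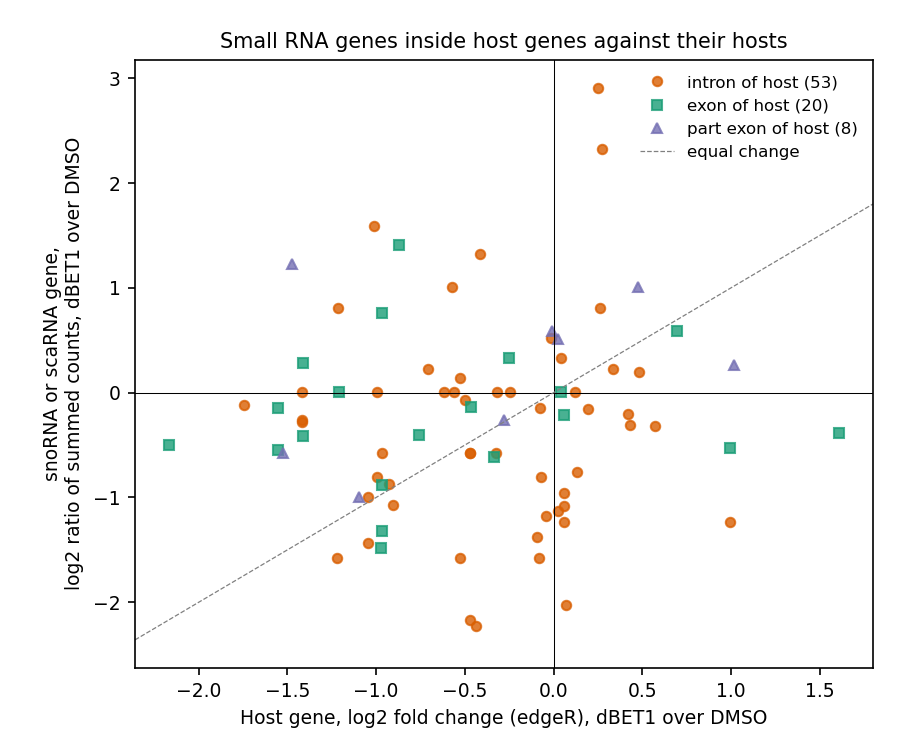
Log2 ratio of the summed counts of each of 81 snoRNA and scaRNA genes against the log2 fold change of its host gene, both dBET1 over DMSO, by place in the host. The points do not follow the dashed line of equal change, and 12 genes in ribosomal protein hosts, whose median host value was 0.06, had a median of -1.02.

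7SL RNA, the scaffold of the signal recognition particle that brings secreted proteins to the membrane, was the most abundant member class. Its 2 member genes, RN7SL1 and RN7SL2, differ at 5 positions, so reads of one can be counted for the other. RN7SL2 (ENSG00000274012, chr14:49862550-49862849, minus strand) had 3470 and 5086 counts under DMSO and 1502 and 1785 under dBET1, a ratio of 0.385 (0.370 to 0.401) and a log2 fold change of -1.40 ± 0.22 (SE, n = 2 per group, edgeR adjusted p = 0.00124). RN7SL1 (ENSG00000276168, chr14:49586580-49586878, plus strand) had 1401 and 1280 counts against 809 and 1112, a log2 fold change of -0.48 ± 0.14 (SE, edgeR adjusted p = 0.0231), which did not pass the limit on the fold. Both genes had both dBET1 libraries below both DMSO libraries. Summed, the genes had 4871 and 6366 counts with DMSO and 2311 and 2897 with dBET1, a ratio of 0.465 (0.450 to 0.481). RN7SL3 had 1 count in all. RN7SL1 lies antisense to RPS29, a ribosomal protein gene with a log2 fold change of -0.34, and RN7SL2 lies in an exon of an annotated lncRNA gene, and without a stated strand setting such reads cannot be told apart.

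RMRP, the RNA of the RNase MRP that cuts the ribosomal RNA precursor, had 4 and 6 counts with DMSO and 1 and 0 with dBET1, a ratio of 0.10 (0.00231 to 0.705), below the filter of the test. RPPH1, the RNA of RNase P that trims the 5′ end of tRNAs, had 2 and 13 counts against 12 and 7, with overlapping groups (log2 fold change 0.31 ± 0.84, SE, edgeR adjusted p = 0.777). Its direction turned with single libraries, since the log2 fold change was -0.58 without DMSO replicate 1, 2.26 without DMSO replicate 2 and -0.16 without dBET1 replicate 1.

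The genes of proteins that make, carry or trim these RNAs were read from the same fit. Of 103 tested genes in 11 lists, 1 was called higher and 25 lower, beside 16.9% and 8.54% of all genes. The Sm proteins, which form the ring on U1, U2, U4 and U5, had 6 of 7 genes lower with a median log2 fold change of -1.33, with the smallest p for SNRPD1 at -1.38 ± 0.07 (SE, edgeR adjusted p = 1.22e-05). Among U1 and U2 proteins, 3 of 9 were lower, with the smallest p for SNRPA1 at -1.67 (edgeR adjusted p = 1.28e-05).

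The proteins of the snoRNA particles hold the guide RNAs and carry out the modification. Of the box C/D proteins, 3 of 4 were lower, with the smallest p for NOP56 at -1.52 (edgeR adjusted p = 1.03e-05), and of the box H/ACA proteins 4 of 6, with the smallest p for the pseudouridine synthase gene DKC1 at -1.21 (edgeR adjusted p = 1.57e-05). In the list of factors that trim and degrade small RNAs, 4 of 17 were lower, with the smallest p for the exosome gene EXOSC3 at -1.25 (edgeR adjusted p = 2.09e-05). Of the RNase P and MRP proteins, 2 of 10 were lower, with the smallest p for POP5 at -1.24, and RPP25 was the gene called higher, at 1.91 ± 0.11 (SE, edgeR adjusted p = 1.54e-05).

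The lists of transcription factors, Integrator, signal recognition particle and 7SK proteins held few calls past both thresholds. By edgeR adjusted p under 0.05 alone, 3 of 11 snRNA transcription factors, 5 of 15 Integrator genes and 7 of 11 polymerase III factors were lower. So were 5 of 6 signal recognition particle genes, and 0 genes of these lists were higher. Among 7SK proteins 2 were lower and 1 higher by this limit. The share of all genes past this looser limit is not given here, so these numbers have no background beside them. Of 11 factors of snRNA gene transcription, 0 were called in either direction, with log2 fold changes of -0.55 to 0.05. In the Integrator, the complex that cuts the 3′ end of snRNA precursors, 1 of 15 genes was lower, INTS10 at -1.14 ± 0.08 (SE, edgeR adjusted p = 2.96e-05), and the median was -0.12. Of 11 polymerase III factors, 1 was lower, GTF3C6 at -2.11 (edgeR adjusted p = 7.28e-06), and of 6 proteins of the signal recognition particle 1 was lower, SRP72 at -1.10. None of 7 proteins of the 7SK particle, which holds the elongation factor P-TEFb, was called, and the median of that list was 0.08.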

How the data were processed

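Total RNA of cells labelled NB4 was sequenced as 150-base paired reads in 4 libraries, 2 per group. The labels name TRIzol and an Illumina TruSeq RNA kit, while the methods name an RNeasy Mini kit. The authors aligned reads to hg38 (Ensembl) with HISAT2 2.2.0, per the labels, and estimated abundances with StringTie. Per gene, the deposited values are raw counts in whole numbers. The step that made them and its strand setting are not given in the sources used here, and no column was left out (0 columns).

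GENCODE release 44 (hg38) gave symbols and places for 56105 of 64252 identifiers. Identifiers without a symbol held 2.57% of the counts. The members, classes and lists were chosen with earlier results of these data known. Named genes were, in each class, the 2 members with the highest mean CPM, up to 5 members per direction past both thresholds by smallest p, a fixed set of single-copy small RNAs, genes at the count limit, hosts of named intronic members, and the partner gene with the smallest p per list and direction. Other genes were named after their values were seen.

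Counts were tested with edgeR 4.0.16 (filterByExpr, TMM factors, quasi-likelihood test, Benjamini-Hochberg adjustment over 17971 genes) in R 4.3.3. CPM are counts scaled by the normalized library size. A call needed an adjusted p under 0.05 together with a log2 fold change of more than 1 in size. The steps were tested on simulated data. Alternatives were DESeq2 1.42.0, other scalings, filters and thresholds, counts divided by 2, the replicate number as a block, and each library left out. In every library, genes with 2 counts were nearly as many as genes with 1 (in DMSO replicate 1, 2028 and 2426), while 1016 had 3, which is why counts divided by 2 were tried.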

Additional observations from a re-analysis of the deposited data

How the results depend on the processing

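The number of higher members, 10, fell to 2 with at least 10 counts in every library, where 16 members were tested. With counts divided by 2 it fell to 4, and in both settings the higher members left were SNORD3 genes. It ranged from 6 to 10 with each library left out, the 6 without dBET1 replicate 1. The number of lower members, 7, fell to 2 with DESeq2, to 4 with no count filter and to 4 with at least 10 counts in every library, and ranged from 2 to 4 with each library left out. Of the lower calls, those of SNORD17 and RN7SL2 held in all 12 fits, as did the higher calls of SNORD3A and SNORD3C. SNORA3B was past both thresholds in 2 of 10 fits and SNORA5C in 3 of 11.

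Total counts in place of TMM raised the median log2 fold change of all genes by 0.21. The summed log2 ratio of box C/D then moved from 0.55 to 0.76, that of box H/ACA from -0.41 to -0.20, and that of the small Cajal body RNAs turned from -0.16 to 0.052. Without its largest member, the log2 ratio was -0.48 for 7SL, 2.51 for U1, 0.19 for box C/D and -0.086 for the small Cajal body RNAs. Over every annotated gene of the class, symbols ending in P included, it was 1.43 for U4, against 4.97, and 0.47 for box C/D. Without the SNORD3 genes, an alternative chosen after seeing the data, box C/D turned to -0.69. With each library left out, box C/D ranged from 0.51 to 0.55 and the small Cajal body RNAs from -0.22 to -0.16. U4 could not be computed without DMSO replicate 1, which held its only DMSO count. Other causes of these shifts were not tested. Partner genes called higher numbered 2 in place of 1 with total counts, with at least 10 counts in every library and with counts divided by 2, and 1 to 2 with each library left out. Those called lower numbered 16 with total counts and 26 to 31 with each library left out.

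Same-numbered replicates did not deviate together across genes (correlation -0.0075). With 4 libraries this does not tell whether they shared a culture or a preparation. With the replicate number as a block, 10 members were higher and 5 lower, and the calls of SNORA3B and SNORA5C were lost (edgeR adjusted p = 0.0848 and 0.057). Of the counts, few per member limit the precision, and 2 libraries per group leave single outlying libraries untested.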

Other observations

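The genes with the same symbols that end in P, which were left out above, held 92 genes with at least 10 counts. They summed to 649 and 582 counts with DMSO and to 724 and 768 with dBET1, a ratio of 1.22 (95% counting interval 1.13 to 1.31). Of 14 tested, 5 were called higher and 0 lower, beside 16.9% and 8.54% of all genes tested. Among the 5, RN7SL333P had 11 and 9 counts with DMSO and 26 and 21 with dBET1 (log2 fold change 1.23, edgeR adjusted p = 0.0487). Among 45 copies named for 7SL, RN7SL473P had 0 and 0 counts with DMSO and 12 and 30 with dBET1, and RN7SL219P had 1 and 2 counts against 11 and 23 (edgeR adjusted p = 0.00754). The copies with the most counts, RN7SL4P (91 and 81 counts against 51 and 78) and RN7SL5P (83 and 101 against 45 and 61), were not called (edgeR adjusted p = 0.264 and 0.0561). All copies of 7SL summed to 444 and 427 counts against 470 and 558, a ratio of 1.18 (1.08 to 1.30), beside 0.465 for RN7SL1 and RN7SL2. Copies named for U6 had a ratio of 1.26 (1.01 to 1.58), and those named for 7SK had a ratio of 1.12 (0.869 to 1.45). The genes of this paragraph were named after their values were seen.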
